A study of Mus musculus with 6 samples.

Results

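The 38 genes described here mark the endothelial cells that line blood and lymphatic vessels, and they were measured in lung RNA of 6 mice. The list was made from names that mark endothelium, with earlier results of these data known, and the genes were found on the array through the RefSeq transcript of each probe. All 38 were on the array, and all 38 were tested, among 32450 genes and unnamed probes tested in all. Each was well above background on all 6 arrays. The mice were C57BL6 males, 10 weeks old, and every one of them had been starved for 16 h and then given lipopolysaccharide, the endotoxin of Gram-negative bacteria, at 20 mg/kg into the peritoneum. Of these, 3 received saline and 3 received recombinant antithrombin (rAT), the plasma inhibitor of thrombin, at 750 IU/kg, in both cases at 3 h and 24 h after the endotoxin. Whole lung was taken at 30 h. No mouse without endotoxin was analysed here, so each value sets antithrombin against saline in endotoxaemic lung.

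Endothelial cells share a core identity, held by transcription factors of the ETS, SOX and KLF families and shown at the surface by junction proteins such as VE-cadherin and claudin-5. On top of that core, vessels differ. Arteries use Notch signalling and connexins, veins carry the receptor EphB4, lymphatic vessels depend on PROX1 and VEGFR3, and the capillaries of the lung contain general capillary cells, marked by Gpihbp1, and large aerocytes that face the air, marked by Car4 and apelin. The comparison asks whether the transcripts of this identity differ in endotoxaemic lung after antithrombin. In whole lung, fewer cells of a type and less RNA per cell cannot be told apart.

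All values below are log2 signals of a gene's brightest probe, with 0 at the 75th percentile of the probes on that array, and all differences are antithrombin minus saline on that log2 scale. Signals of different genes come from different probes and are not set against each other. The number of arrays limits the precision.

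None of the 38 genes passed the adjusted threshold of 0.05 (limma, Benjamini-Hochberg over all genes tested, adjusted p between 0.151 and 0.957). Over all genes tested 2 passed, which is 0.00616% of them. Here and below, all genes tested means the 32450 genes and unnamed probes, of which 17515 had a gene symbol. At an unadjusted p under 0.05, 10 of the 38 were lower after antithrombin (limma), or 26.3%, where 12.9% of all genes tested were lower at that p. On the higher side 3 of the 38 stood at that p, or 7.89%, against 8.73% of all genes tested. The lower ones were Gpihbp1, Tmem100, Plvap, Lyve1, Gja4, Ephb4, Robo4, Esam, Erg and Fli1, and the higher ones were Acvrl1, Podxl and Car4. The median difference over the 38 was -0.19, with 27 negative, beside a median of -0.05 over all genes tested, of which 57% were negative. The values of the groups did not overlap for 9 genes that were lower and 3 that were higher, where 18.1% and 10.7% of all genes tested were so separated. These counts moved with single mice. The count of lower genes was 6 without saline mouse 1, 6 without saline mouse 3, 4 without antithrombin mouse 1 and 5 without antithrombin mouse 3, and the count of higher genes was 0, 1, 3 and 1 in that order. In the same order 8.76%, 7.16%, 8.77% and 8.03% of all genes were lower and 5.86%, 5.8%, 6.81% and 5.62% were higher. Without antithrombin mouse 2 the counts were 9 lower and 1 higher, against 9.17% and 6.66% of all genes. The median difference over the 38 was -0.11 without antithrombin mouse 1. Without saline mouse 2 the counts were 14 lower and 7 higher, against 18.3% and 13.5% of all genes.

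**Figure D1:**
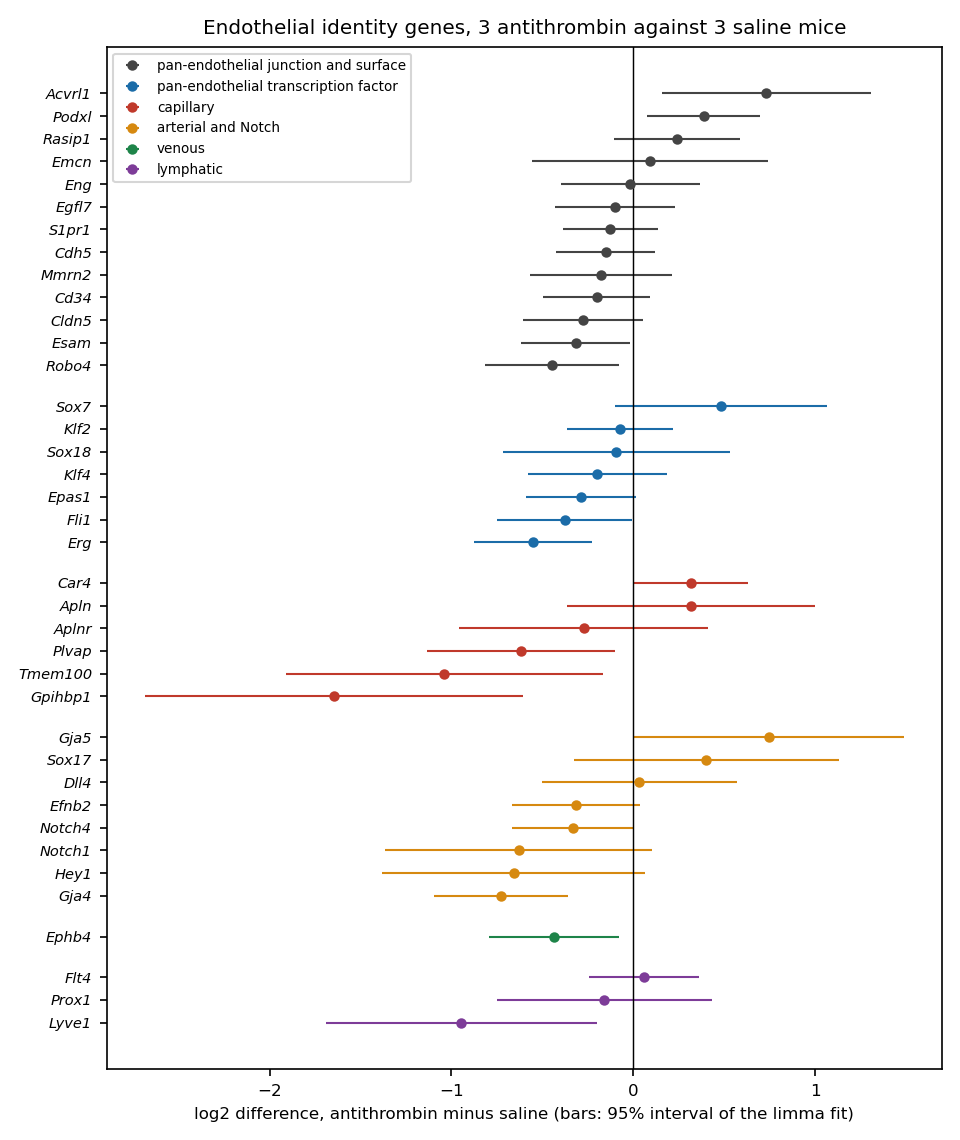
Log2 difference, antithrombin minus saline, of each of the 38 genes with its 95% interval from the limma fit (n = 3 mice a group), blocked and coloured by vessel class. Gpihbp1 lies farthest to the left at -1.65, while Gja5 at 0.74 and Acvrl1 at 0.73 lie farthest to the right, and every class of more than 1 gene holds points on both sides of 0.

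The capillary genes gave the widest range. Their median difference was -0.44 over 6 genes, of which 4 were negative, 3 were lower and 1 was higher at an unadjusted p under 0.05 (limma), where 57% of all genes were negative, 12.9% lower and 8.73% higher. Gpihbp1 encodes the protein that carries lipoprotein lipase to the luminal face of capillaries. Its log2 signal was 4.38, 2.82 and 3.83 in saline mice 1, 2 and 3, and 1.99, 2.60 and 1.50 in antithrombin mice 1, 2 and 3. The groups did not overlap, but saline mouse 2 lay only just above antithrombin mouse 2. The means were 3.68 ± 0.79 (SD, n = 3) and 2.03 ± 0.55 (SD, n = 3), a signal 3.13-fold lower after antithrombin, with a difference of -1.65 (95% interval -2.69 to -0.61, limma unadjusted p = 0.00748, adjusted p = 0.157). Leaving out saline mouse 1 gave -1.30, and leaving out saline mouse 2 gave -2.07.

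Tmem100, a membrane protein induced by signalling through the receptor ALK1, is counted here among the capillary genes. Its signal was 3.19, 2.09 and 3.19 in the saline mice and 1.55, 2.33 and 1.47 in the antithrombin mice. Saline mouse 2 lay inside the antithrombin range, so the groups overlapped, and the difference was -1.04 (SE 0.37, limma adjusted p = 0.19). Plvap encodes the protein of the diaphragms that span endothelial fenestrae and caveolae. Its signal was 5.43, 4.62 and 4.88 in the saline mice and 4.37, 4.49 and 4.22 in the antithrombin mice. Every antithrombin mouse lay below every saline mouse, and the difference was -0.62 (SE 0.22, limma adjusted p = 0.19), or -0.39 without saline mouse 1.

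The aerocyte genes Car4 and Apln had positive differences, although that of Apln was -0.03 on the arrays of slide row 1 alone. Car4, the carbonic anhydrase of lung capillaries, stood at 0.59, 0.97 and 0.67 in the saline mice and at 1.13, 1.01 and 1.04 in the antithrombin mice. The groups did not overlap, with saline mouse 2 again next to the antithrombin mice, and the difference was 0.32 (SE 0.13, limma unadjusted p = 0.0487, adjusted p = 0.229). Apln, which encodes the peptide apelin, gave 0.32 (95% interval -0.36 to 1.00), and saline mouse 2 had the highest of all 6 values, at 1.03. Leaving out saline mouse 2 moved the Apln difference to 0.62, and leaving out saline mouse 3 moved it to 0.03. Aplnr, the apelin receptor, gave -0.27 (95% interval -0.96 to 0.41). Whether the general capillary genes and the aerocyte genes differ from each other in their response was not tested.

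**Figure D2:**
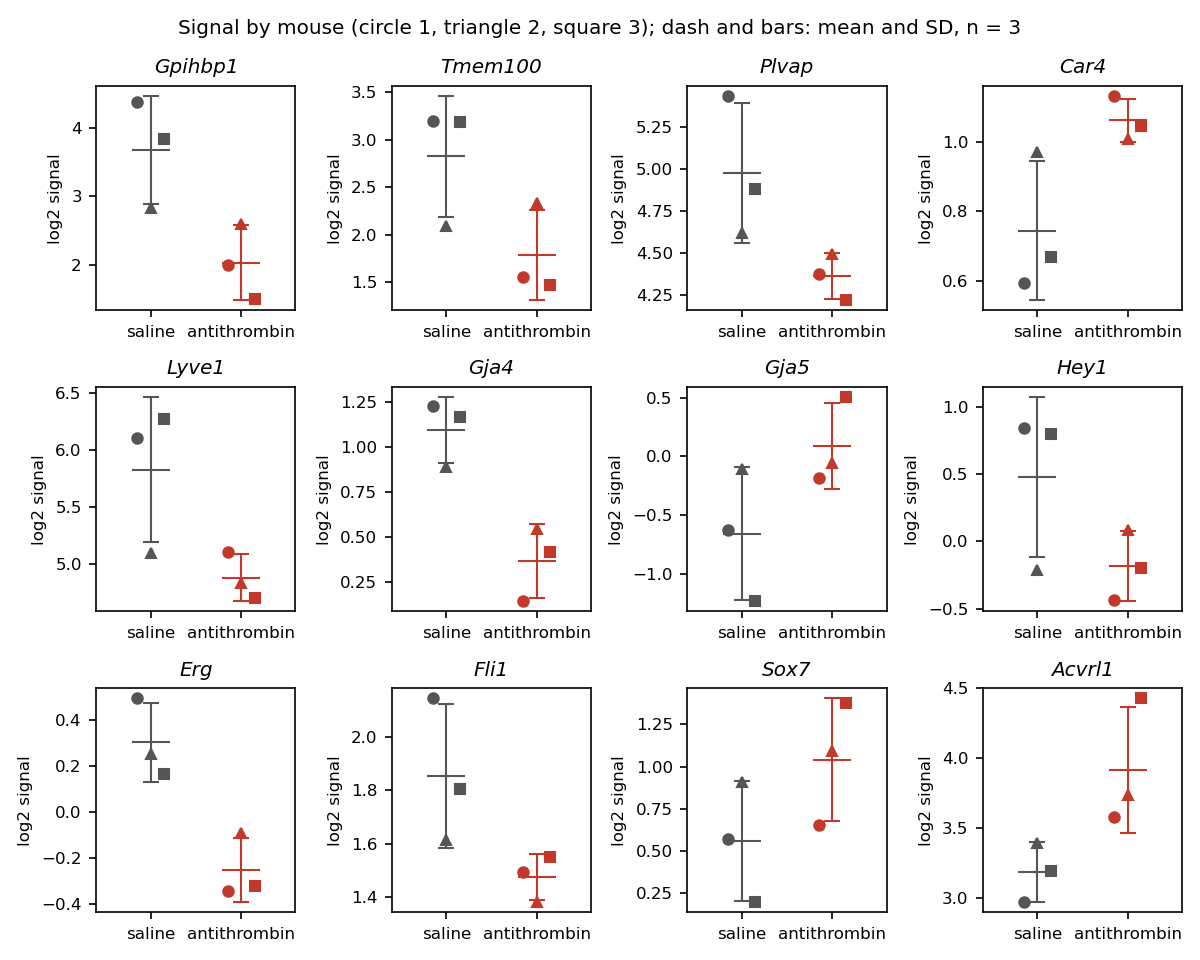
Log2 signal of 12 of the genes in each mouse, with 0 at the array's 75th percentile. Symbols mark the mouse number, the dash is the group mean and the bars are the SD (n = 3); in Gpihbp1, Tmem100, Lyve1 and Hey1 the triangle of saline mouse 2 lies apart from the other saline mice, toward the antithrombin values, and the scale of each panel differs.

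Among the arterial and Notch genes the 2 connexins had differences of opposite sign. Gja4 encodes connexin 37, which forms gap junctions between arterial endothelial cells. Its signal was 1.23, 0.89 and 1.17 in the saline mice and 0.14, 0.54 and 0.42 in the antithrombin mice, without overlap. Gja4 was 1.66-fold lower after antithrombin, with a difference of -0.73 (95% interval -1.09 to -0.36). Gja4 had the smallest p of the 38 genes (limma unadjusted p = 0.00237, adjusted p = 0.151), and its unadjusted p stayed under 0.05 in all 18 alternatives tried. Gja5 encodes connexin 40, the other main connexin of arterial endothelium. Its signal was -0.63, -0.11 and -1.23 in the saline mice and -0.18, -0.06 and 0.50 in the antithrombin mice. Saline mouse 2 lay inside the antithrombin range, and the difference was 0.74 (95% interval -0.0011 to 1.49, limma unadjusted p = 0.0503), which became 0.46 when saline mouse 3 was left out. A second, dimmer Gja5 probe gave -0.20, so the probes disagree in sign and the direction for Gja5 is uncertain.

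In the Notch pathway the receptors and the target gene had negative differences and the ligand Dll4 a difference near 0, and the 95% intervals of Notch1, Notch4, Hey1 and Dll4 all included 0. Notch1, the receptor that is expressed in many lung cell types, stood at 2.46, 3.09 and 3.099 in the saline mice and at 2.40, 2.72 and 1.65 in the antithrombin mice. Antithrombin mouse 3 was the lowest, and the difference was -0.63 (95% interval -1.36 to 0.10). It was -0.33 without that mouse, -0.30 with array weights and -0.22 on slide row 1 alone. Notch4, a receptor largely restricted to endothelium, stood at 4.53, 4.15 and 4.32 in the saline mice and at 4.01, 4.15 and 3.85 in the antithrombin mice. The groups all but touched, with both mice numbered 2 at 4.15, and the difference was -0.33 (SE 0.14, limma unadjusted p = 0.0527). Hey1, a transcription factor switched on by Notch, stood at 0.84, -0.21 and 0.80 in the saline mice and at -0.44, 0.09 and -0.19 in the antithrombin mice. Saline mouse 2 was inside the antithrombin range, and the difference of -0.66 (limma unadjusted p = 0.0686) became -1.001 without that mouse. The ligand Dll4 gave 0.03 (95% interval -0.50 to 0.57), or -0.03 with normexp background correction, and Efnb2, which encodes the arterial ligand ephrin-B2, gave -0.31 (95% interval -0.66 to 0.04). Over the 8 arterial and Notch genes the median was -0.32, with 5 negative, 1 lower and 0 higher at an unadjusted p under 0.05 (limma). The 1 of 8 that was lower and the 5 of 8 that were negative are near the 12.9% and 57% of all genes.

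Ephb4, the venous receptor for ephrin-B2, was the 1 venous gene among the 38. Its signal was 1.63, 1.55 and 1.92 in the saline mice and 1.06, 1.41 and 1.31 in the antithrombin mice. The groups did not overlap, and the difference was -0.44 (SE 0.15, limma unadjusted p = 0.0239, adjusted p = 0.185). A second Ephb4 probe gave -0.41.

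Of the 3 lymphatic genes, Lyve1 had a negative difference, and the 95% intervals of Prox1 and Flt4 included 0. Lyve1 encodes a hyaluronan receptor of lymphatic endothelium that some lung macrophages also carry. Its signal was 6.11, 5.09 and 6.27 in the saline mice and 5.11, 4.83 and 4.70 in the antithrombin mice. Saline mouse 2 lay with the antithrombin mice, just below antithrombin mouse 1, and the other saline mice lay above every antithrombin mouse. The difference was -0.95 (SE 0.31, limma adjusted p = 0.179), or -1.31 without saline mouse 2 and -0.72 without saline mouse 3. Prox1, the transcription factor that sets lymphatic fate, gave -0.16 (95% interval -0.75 to 0.43), and Flt4, which encodes the lymphatic growth factor receptor VEGFR3, gave 0.06 (95% interval -0.24 to 0.36). The median over these 3 genes was -0.16.

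The 10 transcription factors had a median difference of -0.18, close to the -0.19 of the 28 other genes. Of the 10, 8 were negative, 2 were lower and 0 were higher at an unadjusted p under 0.05 (limma), while 8 of the 28 other genes were lower and 3 were higher. Over all genes tested 57% were negative, 12.9% lower and 8.73% higher. The lower pair of the 10 were the ETS factors, which bind the promoters and enhancers of many endothelial genes. Erg stood at 0.49, 0.25 and 0.16 in the saline mice and at -0.34, -0.09 and -0.32 in the antithrombin mice. Every antithrombin mouse lay below every saline mouse, and saline mouse 2 lay between the other saline mice. The difference was -0.55 (SE 0.14, limma unadjusted p = 0.00511, adjusted p = 0.155), or 1.47-fold lower, and its unadjusted p stayed under 0.05 in all 18 alternatives tried. Fli1, which leukocytes and platelet precursors also express, stood at 2.14, 1.61 and 1.80 in the saline mice and at 1.49, 1.38 and 1.55 in the antithrombin mice. Its groups did not overlap, but the difference of -0.38 (limma unadjusted p = 0.0476) became -0.23 without saline mouse 1.

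The SOX factors of the F group, which act together in vascular development, had differences of both signs, with 0 of 3 at an unadjusted p under 0.05 (limma). Sox7 stood at 0.57, 0.91 and 0.20 in the saline mice and at 0.66, 1.09 and 1.38 in the antithrombin mice. The groups overlapped through saline mouse 2, and the difference was 0.48 (95% interval -0.10 to 1.07), which became 0.30 when saline mouse 3 was left out. Sox17, which favours arterial fate, gave 0.40 (95% interval -0.33 to 1.13), with 0.63 for a second probe, 0.73 without saline mouse 2 and 0.16 without saline mouse 3. Sox18, a factor of early lymphatic development, gave -0.09 (95% interval -0.72 to 0.53). As a mean over the 3 SOX genes, the signal less the saline mean was 0.11, 0.28 and -0.39 in the saline mice and -0.07, 0.47 and 0.39 in the antithrombin mice, which overlap. The same mean over Erg and Fli1 was 0.24, -0.15 and -0.09 in the saline mice and -0.50, -0.43 and -0.46 in the antithrombin mice, which do not. Neither gene overlapped by itself, so their mean could not overlap and adds no further result.

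Klf2 and Klf4, the factors that laminar shear stress induces in endothelium, had intervals that include 0. Klf2 gave -0.07 (95% interval -0.36 to 0.22) and Klf4, which epithelium and monocytes also express, gave -0.20 (95% interval -0.58 to 0.18). Both intervals leave out a 2-fold change in either direction. Epas1 encodes the hypoxia-inducible factor HIF-2alpha, which is abundant in lung endothelium. It gave -0.29 (SE 0.13, limma unadjusted p = 0.0591), with saline values of 7.67, 7.42 and 7.75 against 7.28, 7.43 and 7.25, so that saline mouse 2 and antithrombin mouse 2 nearly coincided.

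Promoter sequences were looked up for the 38 genes, because ETS, KLF, SOX and Notch factors are among them. RefSeq promoters of build GRCm38.p6 were at hand for 21 of the 38. Of the 13 genes with an unadjusted p under 0.05, the 4 with 1 annotated start each are shown, as the 250 bases before the start, 5′ to 3′ on the gene's strand. Capitals mark GGAA, the core of ETS sites, CACCC, bound by KLF factors, ACAAT, bound by SOX factors, and TGGGAA, bound by the Notch effector RBPJ, each on either strand. TGGGAA contains GGAA, so those matches count for both.
Gja4, minus strand, chr4:127314040-127314289: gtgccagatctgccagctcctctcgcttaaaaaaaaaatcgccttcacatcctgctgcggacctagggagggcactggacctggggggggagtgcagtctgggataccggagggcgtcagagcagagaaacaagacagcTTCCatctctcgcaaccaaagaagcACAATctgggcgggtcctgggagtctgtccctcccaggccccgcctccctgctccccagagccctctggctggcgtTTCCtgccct
Robo4, plus strand, chr9:37401722-37401971: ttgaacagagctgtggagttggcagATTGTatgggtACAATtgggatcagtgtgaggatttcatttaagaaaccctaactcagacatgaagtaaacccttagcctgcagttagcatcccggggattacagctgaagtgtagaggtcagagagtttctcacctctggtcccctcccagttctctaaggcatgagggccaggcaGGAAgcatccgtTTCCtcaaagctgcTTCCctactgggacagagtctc
Ephb4, plus strand, chr5:137349859-137350108: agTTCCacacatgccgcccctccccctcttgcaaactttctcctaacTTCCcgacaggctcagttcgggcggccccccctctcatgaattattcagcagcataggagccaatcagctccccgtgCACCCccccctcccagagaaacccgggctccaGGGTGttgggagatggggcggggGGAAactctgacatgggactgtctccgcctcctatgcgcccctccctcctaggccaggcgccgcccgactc
Car4, plus strand, chr11:84957504-84957753: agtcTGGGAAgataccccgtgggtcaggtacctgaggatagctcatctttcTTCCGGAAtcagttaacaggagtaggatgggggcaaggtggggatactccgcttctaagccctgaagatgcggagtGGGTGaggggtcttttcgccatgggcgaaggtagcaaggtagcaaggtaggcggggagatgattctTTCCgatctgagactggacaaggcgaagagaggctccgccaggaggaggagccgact
Gja4 held 2 matches to GGAA, Robo4 3, Ephb4 3 and Car4 4, of which 2 in Car4 abut on opposite strands. These 4 letters are common, and 93.4% of 32851 promoter windows of the same length held them, with a mean of 2.91 matches a window against 2.81 in the windows of the matched genes. Counting a gene once if any of its windows held the letters, CACCC was found in 15 of the 21 matched genes and in 54.5% of 27025 genes, ACAAT in 6 and 30.9%, and TGGGAA in 4 and 24.1%. Over all windows the shares were 52%, 27.7% and 21.6%. Among the promoters shown, ACAAT occurred in Robo4 with 2 matches and in Gja4 with 1, and TGGGAA in Car4 with 1. Such matches describe the letters only, and the 4 promoters shown all held GGAA, Car4 included.

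The genes of endothelial junctions and the common endothelial surface had a median difference of -0.13 over 13 genes, of which 9 were negative. At an unadjusted p under 0.05, 2 were lower and 2 were higher (limma), against 12.9% and 8.73% of all genes, so the lower count is near that of all genes. Robo4, a receptor that stabilises the vessel wall, stood at 5.21, 4.75 and 4.78 in the saline mice and at 4.36, 4.50 and 4.55 in the antithrombin mice. The groups did not overlap, and the difference of -0.45 (SE 0.15, limma adjusted p = 0.186) was -0.30 without saline mouse 1. Esam, an adhesion molecule of endothelial tight junctions and platelets, gave -0.32 (95% interval -0.62 to -0.02), without overlap. Podxl encodes the sialomucin podocalyxin, which also occurs on other lung cells. It stood at 0.04, 0.38 and 0.15 in the saline mice and at 0.45, 0.63 and 0.64 in the antithrombin mice, a difference of 0.39 (SE 0.13, limma adjusted p = 0.182) without overlap.

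Apart from Robo4, Esam, Podxl and Acvrl1, which is described with its partners, the 95% intervals of the class included 0. Cdh5, which encodes VE-cadherin, stood at 4.46, 4.31 and 4.38 in the saline mice and at 4.09, 4.36 and 4.24 in the antithrombin mice. The groups overlapped, and the difference was -0.15 (95% interval -0.43 to 0.12). Cldn5, the claudin of endothelial tight junctions, gave -0.28 (95% interval -0.61 to 0.05), and the sialomucin Cd34 gave -0.20 (95% interval -0.49 to 0.09). Egfl7, a secreted endothelial protein, gave -0.10, Mmrn2, an endothelial matrix protein, -0.18, and S1pr1, the receptor through which sphingosine phosphate tightens the barrier, -0.13. Rasip1, needed for vessel lumens, gave 0.24, and the surface sialomucin Emcn gave 0.09, with the widest interval of the class (-0.56 to 0.74). The intervals of Cdh5, Cldn5, Cd34, Egfl7, Mmrn2, S1pr1 and Rasip1 all include 0 and leave out a 2-fold change in either direction.

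The genes of the receptor ALK1 and of Tmem100 differed in sign, while the sign for the partner Eng was uncertain. Acvrl1, which encodes ALK1, stood at 2.97, 3.39 and 3.19 in the saline mice and at 3.58, 3.74 and 4.43 in the antithrombin mice. All antithrombin mice were above all saline mice, and the difference was 0.73 (95% interval 0.16 to 1.30, limma unadjusted p = 0.0199, adjusted p = 0.179). It was 0.47 without antithrombin mouse 3, which was the highest, and a second Acvrl1 probe gave 0.84. Eng, which encodes the ALK1 co-receptor endoglin, gave -0.02 (95% interval -0.40 to 0.36) and a value just above 0 with normexp, quantile or median scaling. Over the alternatives Eng ranged from -0.11 without saline mouse 1 to 0.21 on slide row 1 alone. Tmem100 was the gene with the second lowest difference of the 38, as given above. Of 18 other tested genes of BMP9 and ALK1 signalling, 15 were negative, with a median of -0.22, against 57% and a median of -0.05 for all genes. At an unadjusted p under 0.05, 4 were lower and 0 higher (limma), against 12.9% and 8.73% of all genes. None passed the adjusted threshold. The 4 lower genes were the signal transducers Smad9 (-1.14), Smad1 (-0.51) and Smad5 (-0.28) and the co-receptor Tgfbr3 (-0.63). As a mean over the 18 genes, the signal less the saline mean was 0.06, -0.30 and 0.23 in the saline mice. It was -0.25, -0.20 and -0.43 in the antithrombin mice, so saline mouse 2 lay inside the antithrombin range.

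**Figure D3:**
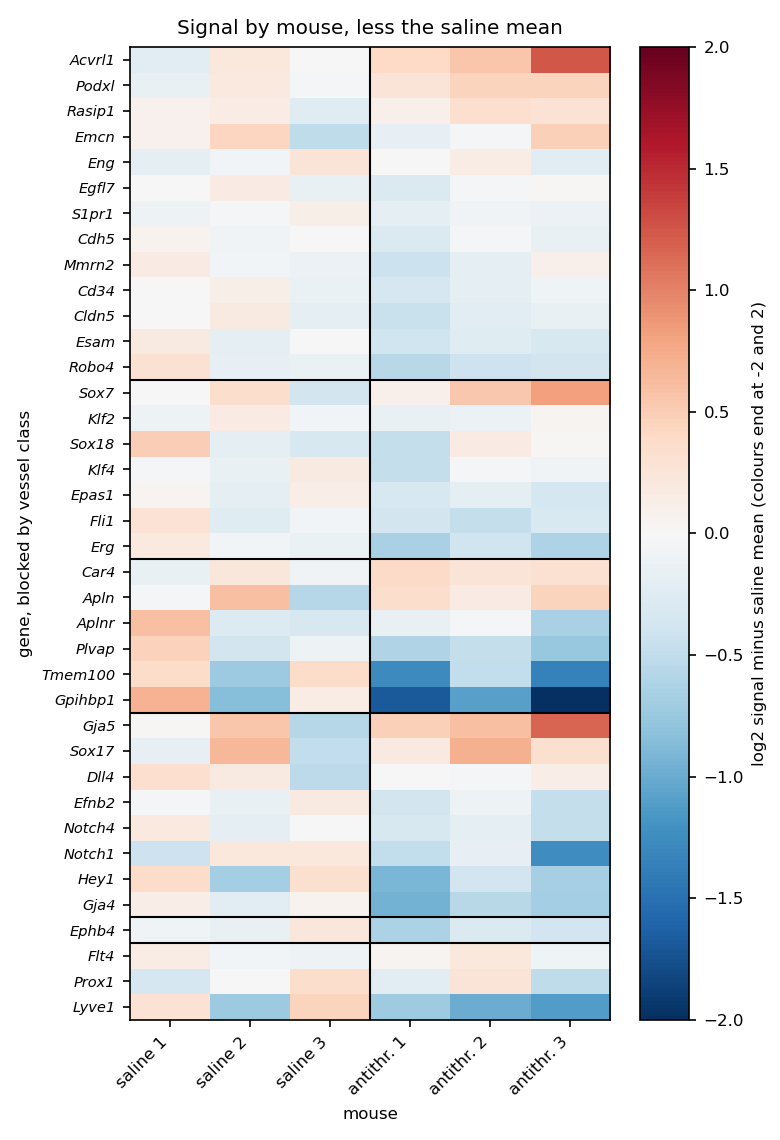
Log2 signal of each of the 38 genes in each of the 6 mice, less the mean of the 3 saline mice, with genes blocked by vessel class in the order of the plot of differences. The column of saline mouse 2 resembles the antithrombin columns in the capillary block (Gpihbp1 and Tmem100 blue), and the strongest blue is Gpihbp1 in antithrombin mouse 3.

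Saline mouse 2 was the saline mouse nearest to the antithrombin mean for 28 of the 38 genes, against 4 for saline mouse 1 and 6 for saline mouse 3. Over all genes tested it was the nearest for 52.5%. It lay inside the antithrombin range for 18 of the 38, against 8 for saline mouse 1 and 7 for saline mouse 3. The share of all genes inside that range was not counted. When saline mouse 2 was left out, 5 of the 38 passed the adjusted threshold and all were lower (limma). These were Lyve1 (limma adjusted p = 0.0255), Gpihbp1 (0.0328), Hey1 (0.0333), Gja4 (0.0349) and Tmem100 (0.0391). Over all genes tested, 5.89% were lower past that threshold. None of the 38 were higher past it, against 4.65% of all genes. Since that mouse lies nearest to the antithrombin mice, leaving it out widens the gap between groups for many genes, so these calls are no separate support. When each array was weighted by its agreement with its group, saline mouse 2 received a weight of 0.391 and saline mouse 1 a weight of 1.89. Gpihbp1, Gja4, Lyve1 and Erg then passed (limma with array weights, adjusted p between 0.0406 and 0.0466), where 4.48% of all genes were lower and 3.44% higher past the threshold, the latter beside 0 of the 38. The weights come from these same arrays and are lowest for saline mouse 2, so these calls are no separate support either. On the antithrombin side, mouse 1 had the lowest mean over the 38 genes, at -0.31 relative to the saline mean, beside -0.08 in mouse 2 and -0.20 in mouse 3. The saline mice stood at 0.09, -0.04 and -0.06 on that mean. For the 6 capillary genes alone the mean was 0.32, -0.23 and -0.09 in the saline mice and -0.50, -0.27 and -0.70 in the antithrombin mice.

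**Figure D4:**
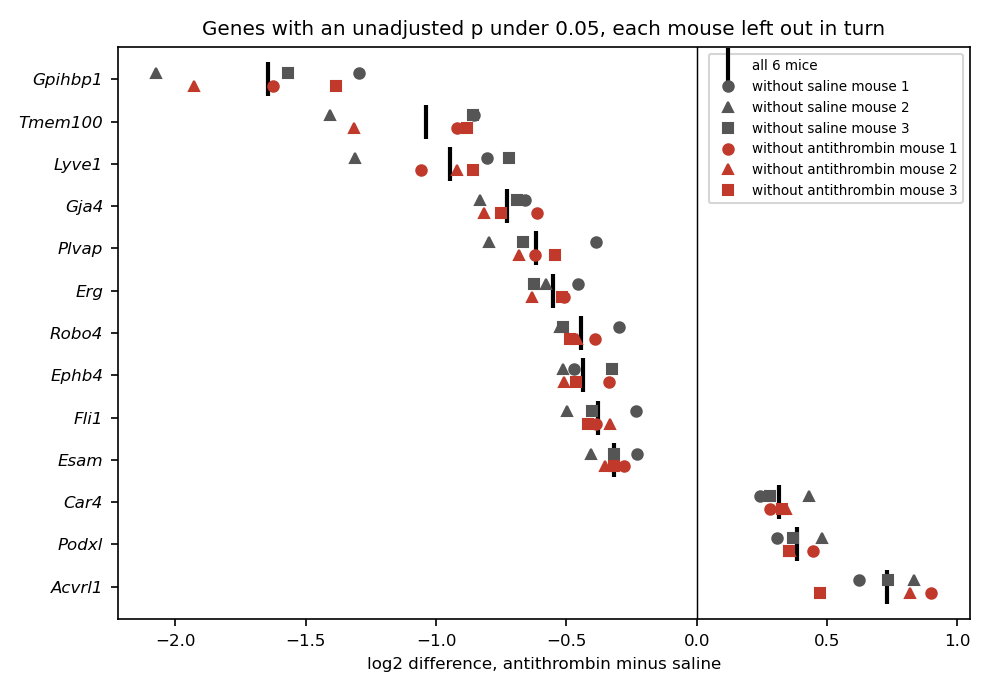
Log2 difference, antithrombin minus saline, of the 13 genes with an unadjusted p under 0.05 with all 6 mice (black bar) and with each mouse left out in turn (symbols, grey for a saline and red for an antithrombin mouse). No symbol crosses 0. Apart from Tmem100 and Lyve1, the groups of these genes did not overlap, so leaving out 1 mouse could not change their sign. The grey triangle, without saline mouse 2, lies farthest from 0 for Gpihbp1 at -2.07, Tmem100 at -1.41 and Lyve1 at -1.31.

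Other genes of the same vessels gave the following counts, with 0 past the adjusted threshold in every list (limma). Of 31 further endothelial genes 20 were negative, with a median of -0.07, and 6 were lower and 0 higher at an unadjusted p under 0.05. These counts and all the list counts that follow are to be read against the 57% negative, 12.9% lower and 8.73% higher of all genes and their median of -0.05. The adhesion receptor Adgrf5 gave -0.99, the phosphatase Ptprb, which restrains the angiopoietin receptor, -0.65, She -0.54 and Pcdh17 -0.48. Of 8 further aerocyte genes 1 was lower, the transcription factor Tbx2 at -0.70, and Prx (-0.22), Fibin (-0.38) and Chst1 (-0.16) had larger p. Of 10 further general capillary genes 2 were lower, the fatty acid transporter Cd36 at -0.38 and Lpl, which encodes the lipoprotein lipase that Gpihbp1 protein binds, at -0.59. Btnl9 (0.42) and Hilpda (0.35) did not reach that p. The medians of the aerocyte and general capillary lists were -0.16 and -0.02.

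Further arterial genes had a median of -0.19 over 17, with 2 lower, the kinase Bmx at -0.43 and Alpl at -0.87, followed by Fbln2 (-0.66) and Efnb1 (-0.42). Further venous genes had a median of -0.15 over 9. The noradrenaline transporter Slc6a2, a marker of pulmonary venous endothelium, gave -0.91 (SE 0.23), and Prss23 gave -1.07 (SE 0.32), both without overlap between groups. Ackr1 (-0.54) and Selp (0.24) had larger p. Further lymphatic genes had a median of 0.02 over 15, with 1 lower and 2 higher. Ccl21a, the chemokine of lymphatic vessels, gave 0.90 (SE 0.19) and Maf 0.49, while Fxyd6 gave -0.83, and Foxc2 (0.50) had a larger p. Ccl21a has near-identical copies in the mouse genome, so its probe may read more than 1 gene.

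Of 22 further Notch pathway genes 16 were negative, with a median of -0.15, and 3 were lower and 2 higher at an unadjusted p under 0.05 (limma), which is near the 12.9% and 8.73% of all genes. The coactivator Maml3 gave -0.38, the protease subunit Psen2 -0.37 and the glycosyltransferase Mfng -0.46, while Rbpj, the DNA-binding effector of the pathway, gave 0.30. A list of 19 genes held upstream genes of Klf2 and Klf4, their targets and other members of the KLF family. Of these 19, 3 were lower and 1 was higher. Map2k5, a kinase of the shear stress cascade, gave -0.42 and Mef2d gave 0.63, while the other family members Klf15 and Klf9 gave -1.001 and -0.70. In the sphingosine phosphate axis 2 of 9 were lower, the transporter Spns2 at -0.38 and the kinase Sphk1 at -0.60, and Mfsd2b (-0.10) and S1pr5 (-0.30) were not. Of 8 hypoxia factors 2 were lower, the oxygen-sensing genes Vhl (-0.36) and Egln1 (-0.23), and 1 was higher, Egln3 (0.51), while Hif1a gave 0.46 with a larger p.

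Markers of other lung cells were counted in the same way, and 0 in any of these lists passed the adjusted threshold (limma). For smooth muscle and pericytes 7 of 10 tested markers were positive, with a median of 0.34. At an unadjusted p under 0.05, 4 were higher and 0 lower (limma). The summed linear signal of these markers, in units of the array's 75th percentile, was 58.1 to 61.3 in saline and 65.9 to 70.3 in antithrombin mice. For neutrophils 8 of 9 were positive and 4 were higher at that p, with a median of 0.41 and sums of 920 to 1136 and of 1062 to 1258. For platelets and megakaryocytes 10 of 10 were positive, with a median of 0.76 and sums of 31.7 to 49.1 and of 44.6 to 52.1. At that p 0 of these were higher. As a mean less the saline mean, saline mouse 2 stood at 0.90, inside the antithrombin range of 0.45 to 1.28. For alveolar type 1 cells 8 of 9 were negative and 4 were lower at that p, with a median of -0.22 and sums of 312 to 345 and of 255 to 291. For fibroblasts 7 of 10 were positive and 1 was higher at that p, with a median of 0.25 and sums of 127 to 194 and of 141 to 174. The median was -0.01 for alveolar type 2 markers with 1 higher, 0.05 for monocyte and macrophage markers with 1 higher and -0.09 for T and B cell markers with 1 lower. The part of cell composition in the endothelial differences was not tested.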

How the data were processed

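Lung RNA was measured on 6 one-colour Agilent arrays of 1 slide, with 1 mouse on each, and the sample titles gave the group and number of each mouse. Spot intensity in the deposited scanner output came from Agilent Feature Extraction 10.7.3.1, per the file headers, whereas the submitters' processing notes name version 9.1. The processed signal has the background subtracted and is not scaled between arrays. The authors' deposited table is on a log2 scale: after removal of 1 offset for each probe and 1 for each array, 100% of its probes matched the log2 processed signal within 0.01. How the authors set these offsets is unknown.

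Control and outlier spots were left out, spots of a probe were averaged as log2 values, and the 75th percentile of each array was subtracted. Accessions without version, matched to RefSeq transcripts of assembly GRCm38.p6, named 32994 of 56605 probes. The array design names mm9, so no probe coordinates are printed. A symbol took its brightest probe, and was kept when that probe was well above background on 3 or more arrays. limma 3.58.1 (R 4.3.3) gave two-sided tests, adjusted by Benjamini-Hochberg across 32450 genes. Normexp took the median pixel signal, since the files hold no mean signal, with an offset of 50. The fit was tested on simulated data. The members and lists were chosen with earlier results of these data known, and outside the 38 genes the rule named up to 4 tested genes of smallest p in each list. Of the list genes named here, Exoc3l2, Rtkn2, Ly6g and Trac had no matched probe, and Rprml and Grem1 were too dim to test. Figures were drawn with matplotlib 3.10.9.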

Additional observations from a re-analysis of the deposited data

How the results depend on the processing

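The number of the 38 genes past the adjusted threshold was 0 with all 6 mice, 4 with array weights, and 0 to 5 when a mouse was left out. It was 0 in each of the other alternatives, namely normexp, quantile or median scaling, no filter or a stricter filter on dim probes, the mean of probes, values from the deposited table, a variance fitted with trend and robustly, the mouse number or the slide row as a block, and the 4 arrays of slide row 1 alone. The count lower at an unadjusted p under 0.05 (limma) was 10, where 12.9% of all genes tested were lower. It was 4 on row 1 alone (4.81% of all genes), 7 with quantile scaling (11%) and 13 with array weights (19.1%). With normexp it was 14 (15.3%) and with the trended and robust variance 15 (13.9%). It was 4 to 14 when a mouse was left out (7.16% to 18.3%). The count higher was 3 (8.73% of all genes), and it was 5 with array weights (13.4%) and 0 on row 1 alone (4.23%). It was 0 to 7 when a mouse was left out (5.62% to 13.5%). The mouse numbers are shared by the groups, but mice of the same number deviated from their group means with correlations of -0.0096, -0.16 and -0.28. These correlations show no pairing by number, but with 3 mice a group they cannot exclude it. With the mouse number as a replicate block, 6 genes were lower and 2 higher, against 9.04% and 6.6% of all genes. With the slide row as a block, 8 were lower and 2 higher, against 11.3% and 7.81%. The median difference kept its sign, from -0.11 to -0.25 when a mouse was left out. Of single genes, these changed sign under 1 or more alternatives: Emcn, Eng, Sox18, Klf2, Apln, Aplnr, Dll4, Prox1 and Flt4. All 38 genes were well above background on every array. In a fit of only the genes and unnamed probes that were so, 14.1% were lower and 9.23% higher at an unadjusted p under 0.05 (limma). Of the 38, 11 were lower and 4 higher in that fit.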
